A study of Oryza sativa Indica Group with 4 samples.

Results

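The growth-regulating factors (GRFs) of rice are a small family of plant transcription factors. Their probe sets were taken from the array as all those whose single annotated gene carries a symbol or synonym GRF1 to GRF12, with the 14-3-3 genes of similar name left out. The rule found 11 of the 57381 probe sets, for 10 of the 17905 genes named on the array. The genes were GRF1, GRF3, GRF4, GRF5, GRF6, GRF7, GRF8, GRF10, GRF11 and GRF12, and GRF10 had 2 probe sets. No gene of the table used for names is called OsGRF2 or OsGRF9, so these were not analysed here. A lower-case synonym, grf2, belongs to the gene called OsGRF4 and was counted as GRF4, and grf3 likewise belongs to OsGRF5.

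Transcripts were measured in a T-DNA insertion line called OsAPC6, after a part of the anaphase-promoting complex, which drives dividing cells through mitosis, and in its parent, the Basmati 370 cultivar of Indica rice. Both genotypes were sampled as seedlings 15 days after germination, grown under conditions labelled optimal, with 8 µg of total RNA labelled for each Affymetrix rice array. There were 2 mutant and 2 wild-type arrays. The labels name a single insertion line and say nothing of the number of plants behind an array, nor of a rescued or second line. The design text calls the arrays biological replications, but whether they came from separate plantings is not stated. The p-values therefore speak for these samples only. The error behind each p-value was also drawn in part from other probe sets of like signal.

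A GRF protein binds DNA through its WRC domain and joins a GIF coactivator through its QLQ domain. In young leaves, stems and flowers the GRF-GIF pair keeps cells dividing, and the microRNA miR396 cuts most GRF transcripts and so limits the family as tissue matures. In rice, GRF1 was first found as a gene induced by gibberellin in growing stems, and GRF4, also named GS2 and GL2, is known for alleles that escape miR396 and enlarge the grain.

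No GRF gene passed the test between mutant and wild-type seedlings. Of the 11 probe sets, 7 (1 for each of 7 genes) were bright enough to be tested, and 0 of the 7 had an adjusted p under 0.05 in limma, where 19.1% of all 38172 tested probe sets did, 8.86% higher and 10.3% lower in the mutant. That balance of directions turned to 3731 higher and 3389 lower when arrays were set to a common 75th percentile, and it also turned without the first (2523 and 2229) or second (2462 and 2174) wild-type array. Before adjustment, 0 of the 7 had a limma p under 0.05, against 30.6% of all tested probe sets. The remaining 4 probe sets, of GRF6, GRF10 and GRF12, lay in the third of the array with the lowest mean signal. The median log2 difference over the 7 tested genes, mutant minus wild type on the log2(signal + 16) scale, was 0.14, against -0.011 over all tested probe sets. The GRF median was -0.011 over 10 genes with no filter on low signals, 0.068 without the second mutant array and 0.069 without the second wild-type array, so its sign and size rest on these choices. The median size of the difference without its sign was 0.21 for the GRF genes, against 0.30 over all tested probe sets. In whole seedlings, fewer cells that hold a transcript and less of it per cell cannot be told apart. The values in each array are shown in the plot of GRF signals.

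**Figure D1:**
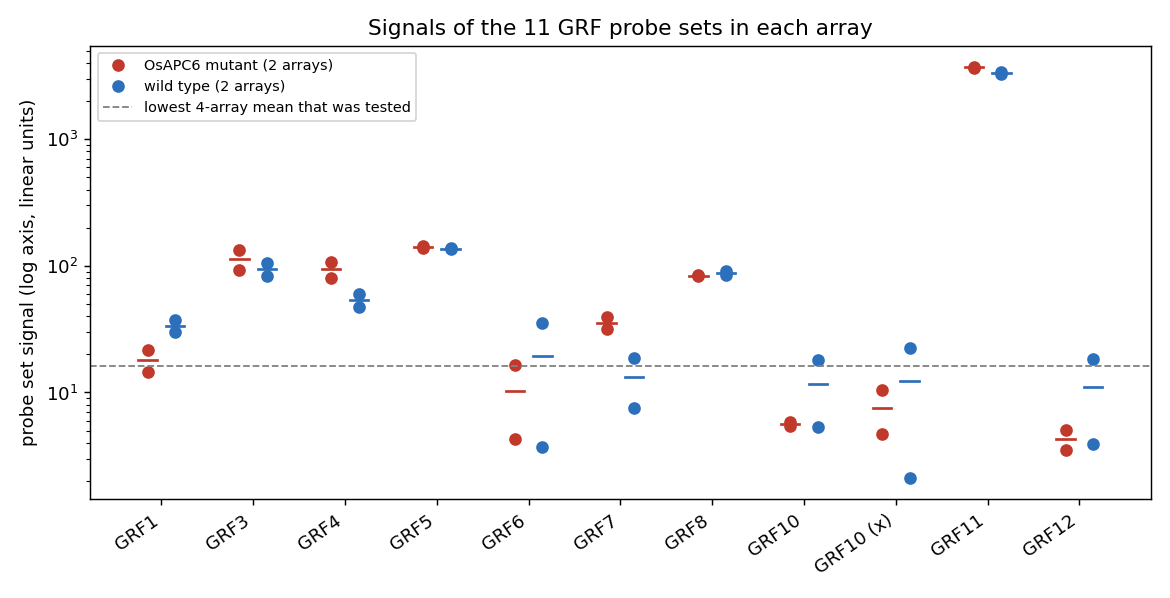
Signal of each GRF probe set (log axis, linear array units) in the 2 OsAPC6 mutant arrays (red, left of each pair) and the 2 wild-type arrays (blue, right), with short lines at the means and (x) for the second GRF10 probe set. The dashed line is 16.05, the lowest mean over 4 arrays that was tested; GRF6, both GRF10 probe sets and GRF12 have means under it.

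GRF4, the grain-size member, did not pass. Its probe set read 107.7 and 80.8 in the mutant arrays, against 60.0 and 47.1 in the wild-type arrays. Both mutant arrays lay above both wild-type arrays. The mean signal was 1.76 times as high in the mutant (94.25 ± 19.0) as in the wild type (53.55 ± 9.12; SD, n = 2 each). The log2 difference was 0.66 ± 0.32 (SE), with a 95% interval of -0.047 to 1.37 (limma adjusted p = 0.195). At this SE GRF4 would have needed a log2 difference of 1.01 to pass, beside the 0.66 found. The ratio of 1.76 is of signals with nothing added, so it cannot be set beside that needed size.

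GRF7, reported in rice to act on plant form through hormone genes, did not pass either. It read 39.2 and 31.5 in the mutant arrays, against 7.5 and 18.8 in the wild-type arrays. The genotypes did not overlap, but the wild-type arrays differed from each other 2.51-fold. The log2 difference was 0.84 ± 0.51 (SE), with an interval of -0.30 to 1.98 (limma adjusted p = 0.317). A difference of 1.64 was needed to pass.

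GRF1, the gibberellin-induced member, was the one tested gene with a difference below -0.5. Its signal was 14.6 and 21.6 in the mutant arrays, against 37.3 and 30.0 in the wild-type arrays. Both mutant arrays lay below both wild-type arrays. The log2 difference was -0.55 ± 0.48 (SE), with an interval of -1.62 to 0.53 (limma adjusted p = 0.511). The intervals of GRF1, GRF4 and GRF7 all reach beyond a 2-fold change. With 2 arrays per genotype, a 2-fold fall of GRF1 or a 2-fold rise of GRF4 or GRF7 was therefore not excluded.

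GRF11 was the brightest member of the family and had the smallest SE of the tested genes. Its replicate arrays differed by 0.034 (mutant) and 0.058 (wild type) log2, beside 0.052 and 0.020 for GRF5. It read 3742 and 3656 in the mutant arrays, against 3414 and 3277 in the wild-type arrays, and the genotypes did not overlap. The means were 3699 ± 61.0 in the mutant and 3345 ± 96.2 in the wild type (SD, n = 2 each), a ratio of 1.11. The log2 difference was 0.14 ± 0.069 (SE; interval -0.0077 to 0.30; limma adjusted p = 0.187), where 0.22 was needed to pass. The interval runs up to a ratio of 1.23 and leaves out any larger rise.

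GRF5 and GRF8 were close to level between the genotypes. GRF5 read 144.0 and 138.3 in the mutant arrays, against 137.7 and 135.6 in the wild-type arrays. Its genotypes did not overlap, yet its log2 difference was 0.042 ± 0.21 (SE), with an interval of -0.44 to 0.52 (limma adjusted p = 0.928). The replicate arrays of GRF5 differed by only 0.052 (mutant) and 0.020 (wild type) log2. Its larger SE was drawn in part from probe sets of like signal. GRF8, reported in rice as the miR396 target that acts on resistance to the brown planthopper, read 82.4 and 85.0 in the mutant arrays, against 91.3 and 85.3 in the wild-type arrays. Its difference was -0.065 ± 0.28, with an interval of -0.68 to 0.55 (limma adjusted p = 0.912). Both intervals exclude a 2-fold change in either direction but leave room for smaller ones.

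GRF3, reported with GRF10 to repress a KNOX meristem gene in rice, overlapped between the genotypes. It read 92.7 and 133.2 in the mutant arrays, against 105.4 and 83.7 in the wild-type arrays. The log2 difference was 0.21 ± 0.28 (SE), with an interval of -0.41 to 0.83 (limma adjusted p = 0.681). Without the second mutant array it was -0.017, so the sign of this difference rests on that array.

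**Figure D2:**
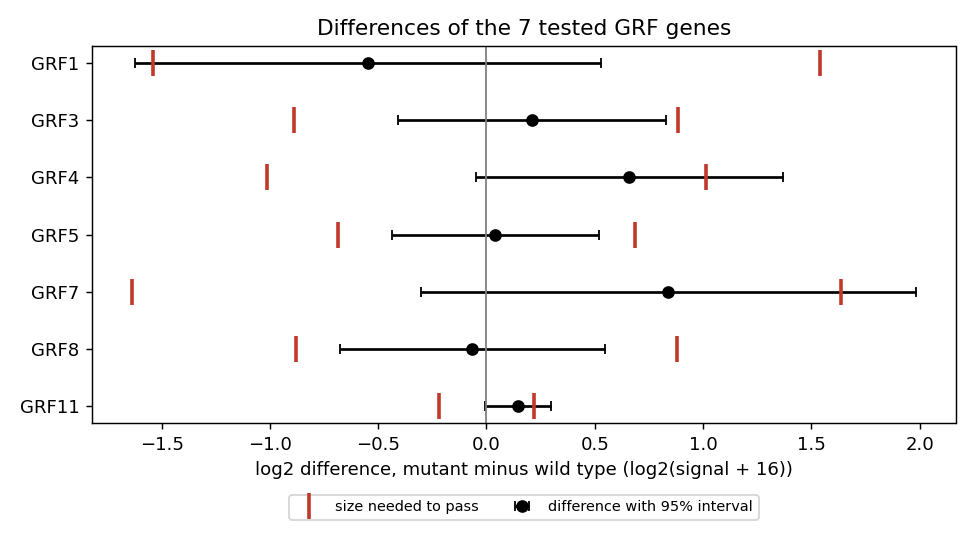
Log2 difference (mutant minus wild type, log2(signal + 16)) of the 7 tested GRF genes, with points at the estimate, black bars for the 95% interval and red ticks at the size each gene needed to pass. Each interval includes 0, and the needed size runs between 0.22 for GRF11 and 1.64 for GRF7.

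The 4 untested probe sets gave values between 2.1 and 35.1 in every array, and none of them separated the genotypes. GRF6, a regulator of inflorescence growth in rice, read 4.3 and 16.4 in the mutant arrays, against 35.1 and 3.7 in the wild-type arrays. Its wild-type arrays differed 9.49-fold. One probe set of GRF10 read 5.4 and 5.8 in the mutant arrays, against 5.3 and 18.1 in the wild-type arrays. The other read 10.5 and 4.7 in the mutant arrays, against 22.5 and 2.1 in the wild-type arrays, so the 2 put different wild-type arrays highest. GRF12 read 3.5 and 5.1 in the mutant arrays, against 3.9 and 18.4 in the wild-type arrays. In a fit with no filter the 4 differences were -0.31 for GRF6, -0.32 and -0.17 for GRF10 and -0.37 for GRF12, with limma adjusted p between 0.618 and 0.881; that fit called 8.66% of all 57258 probe sets. All 4 had one wild-type array well above the rest, so these means say little about the genotype. The filter fell between the mean of 14.9 for GRF6, left out, and that of 24.2 for GRF7, tested.

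The array's own probe sets for foreign reporter genes give a background for these levels. The brightest of the 64 read 10386 and 9989 in the mutant arrays, against 245.6 and 287.2 in the wild-type arrays, and was left out. Why it differed was not tested. The other 63 read between 0.3 and 78.5, with a median of 4.7 and a 95th percentile of 40.3. The values of GRF1, GRF6, GRF7, GRF10 and GRF12 all lie inside that range, as do 2 of the 4 values of GRF4. No detection calls were used here, so whether these transcripts were present in the seedlings cannot be told from the signals. The values of GRF3, GRF5, GRF8 and GRF11 lay above 78.5 in every array, but only those of GRF11 lay above the wild-type values of the brightest reporter.

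Of the 7 tested probe sets, 6 did not overlap between genotypes, 4 higher and 2 lower in the mutant. Over all tested probe sets 56.6% did not overlap, 26.9% higher and 29.7% lower in the mutant. The difference between genotype means exceeded both differences between replicate arrays for GRF1, GRF4, GRF7 and GRF11, 4 of 7, and over all tested probe sets it did so for 45.5%. For GRF3, GRF5 and GRF8 at least one pair of replicates differed by more than the genotypes did. An exact permutation test over 2 against 2 arrays cannot give a two-sided p under 0.333, so it was not used for single genes. A simpler criterion, at least 2-fold the same way in each of the 4 mutant and wild-type array pairs, was met by 0 of the 7 and by 3.46% of tested probe sets.

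**Figure D3:**
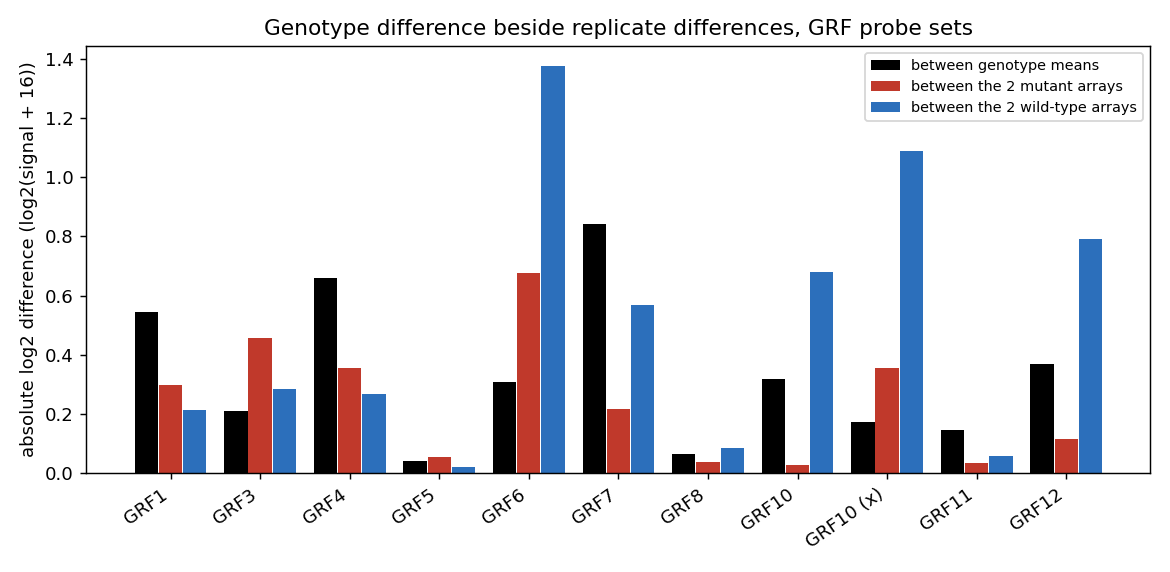
Absolute log2 difference (log2(signal + 16)) of each GRF probe set between the genotype means (black), between the 2 mutant arrays (red) and between the 2 wild-type arrays (blue), with (x) for the second GRF10 probe set. The black bar is the tallest for GRF1, GRF4, GRF7 and GRF11, while for GRF6, GRF10 and GRF12 the wild-type arrays differ most.

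Log2 signals of the mutant arrays correlated at 0.976 and those of the wild-type arrays at 0.979 across tested probe sets, while arrays of different genotype correlated at 0.962 to 0.964. GAPDH, whose 3′ to 5′ signal ratio reflects RNA integrity, had ratios of 18.4 and 16.2 in the mutant, against 9.72 and 9.84 in the wild type. The same ratio overlapped between the genotypes for actin, at 12.2 and 16.6 in the mutant, against 16.1 and 8.79 in the wild type. It also overlapped for cyclophilin, at 2.92 and 2.38 in the mutant, against 2.27 and 2.86 in the wild type. For ubiquitin it was 1.32 and 1.27 in the mutant, against 1.04 and 1.03 in the wild type. Of 12 control probe sets for rice housekeeping genes, the one that moved furthest had a log2 difference of -0.77. The part of RNA integrity in the GRF values was not tested. OsAPC6 has no gene name in the tables used, so its transcript was not analysed here.

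GRF transcripts belong to dividing tissue, so markers of it were set beside them. Of 8 genes on the array for dividing cells and the shoot apex, 5 were tested, 0 were higher and 1 was lower in the mutant, the A-type cyclin gene CYCA1-4, at -0.32 (limma adjusted p = 0.037). The call of CYCA1-4 was lost with no filter (limma adjusted p = 0.0659). CDKB2-1, a mitotic cyclin-dependent kinase gene, read 50 and 72.3 in the mutant arrays, against 26.9 and 29.6 in the wild-type arrays, and did not pass (0.79, limma adjusted p = 0.218). The meristem gene OSH1 read at most 13.3 in any array, and PCNA, the replication clamp, had a difference of -0.028 (limma adjusted p = 0.896). The summed signal of the 8 was 2197 and 2099 in the mutant arrays, against 2335 and 2430 in the wild-type arrays. Without CYCA1-4 it was 1241 and 1188 in the mutant arrays, against 1220 and 1201 in the wild-type arrays, and the genotypes overlapped. Of 4 green-leaf genes 2 were higher and 0 lower, with RCA, the activase of Rubisco, at 0.49. The other, RBCS, passed on its brightest probe set (0.26, limma adjusted p = 0.0263), but not with no filter (limma adjusted p = 0.147). Its dimmer probe sets were at -0.067, -0.38 and -0.46 and did not pass, so the probe sets of RBCS disagree. Of 6 tested root genes 1 was lower, the silicon channel gene LSI1, at -0.74, and LSI2, IRT1 and all but one probe set of CASP1 were under the filter. Summed root signals were 1113 and 1234 in the mutant arrays, against 1737 and 2019 in the wild-type arrays. LSI1 made up most of these sums, and without it they overlapped, at 146.0 and 209.0 in the mutant arrays, against 214.6 and 182.9 in the wild-type arrays. Over all genes at 1 probe set per gene, 26.3% passed, 12.9% higher and 13.5% lower in the mutant. The part of tissue make-up in the GRF values was not tested.

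The genes that work with GRFs were then followed, in lists of coactivators, microRNA machinery, reported targets and interacting hormone pathways. Over all lists, 7 of 26 tested genes were higher and 2 lower in the mutant (limma adjusted p under 0.05), 34.6% in all, beside 26.3% of all 16492 genes. No call of the 9 held without the intensity trend in the variance, where limma called 0 probe sets on the whole array. The coactivator list held 1 gene, MKB3, the rice relative of the Arabidopsis coactivator AN3. It read 5.8 and 12.7 in the mutant arrays, against 22.1 and 0.9 in the wild-type arrays, and was left out by the filter.

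In the microRNA route 1 of 6 genes was higher and 0 were lower. DRB1, a double-stranded RNA-binding partner of Dicer, read 1996 and 2391 in the mutant arrays, against 1735 and 1706 in the wild-type arrays, and was higher by 0.34 ± 0.094 (SE, log2; limma adjusted p = 0.029). A dimmer probe set of DRB1 gave -0.18 (limma adjusted p = 0.364), and the call was lost with no filter (limma adjusted p = 0.0858), without either wild-type array (0.089 and 0.117) or without the second mutant array (0.159). The Argonaute genes, whose proteins carry microRNAs to their targets, had differences of -0.044 for AGO1A, -0.24 for AGO1B, -0.26 for AGO1C and -0.26 for AGO1D, none past the threshold. A second, dimmer probe set of AGO1B passed at -0.86 (limma adjusted p = 0.00346), so its 2 probe sets disagree on the call.

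Among KNOX genes and reported GRF targets 1 of 5 was higher and 0 were lower. JMJ706, a histone demethylase gene reported as a target of GRF6 and GRF10 in rice flowers, read 1721 and 1596 in the mutant arrays, against 1167 and 1234 in the wild-type arrays. Its log2 difference was 0.46 ± 0.086 (SE; limma adjusted p = 0.00396), and its second probe set also passed, at 0.54. CR4, a receptor kinase gene reported as a target of the same factors, had a difference of -0.15 (limma adjusted p = 0.78). OSH71, the KNOX gene also called Oskn2 and reported to be repressed by GRF3 and GRF10, read 18.0 and 42.1 in the mutant arrays, against 35.3 and 15.0 in the wild-type arrays. OSH43, another KNOX gene, read 29.9 and 49.2 in the mutant arrays, against 7.4 and 4.9 in the wild-type arrays, and did not pass (1.31 ± 0.54, limma adjusted p = 0.128).

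Among GRF4-binding proteins and the hormone pathways around them 2 of 9 genes were higher and 1 was lower. The gibberellin repressor SLR1 and the brassinosteroid kinase GSK2 are both reported to bind GRF4. Their genes had differences of -0.054 (interval -0.24 to 0.13) and 0.12 (interval -0.14 to 0.38). BZR1, the transcription factor of brassinosteroid response, read 570.3 and 609.3 in the mutant arrays, against 280.8 and 337.5 in the wild-type arrays, a difference of 0.90 ± 0.14 (SE; limma adjusted p = 0.00117). BRI1, the brassinosteroid receptor gene, read 1963 and 1684 in the mutant arrays, against 2383 and 2659 in the wild-type arrays, a difference of -0.47 ± 0.094 (limma adjusted p = 0.00632). Without the second wild-type array BRI1 did not pass (limma adjusted p = 0.0552). The gibberellin receptor gene GID1 was at 0.26 (limma adjusted p = 0.0408) and did not pass without any one of the 4 arrays (limma adjusted p 0.0521 to 0.304) or with no filter (0.0906). The highest mean in this list was that of GSK4, at -0.15 (limma adjusted p = 0.155).

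Of 6 nitrogen genes reported as GRF4 targets, 3 were higher and 1 lower. GLN1-2, a cytosolic glutamine synthetase gene, read 2548 and 2493 in the mutant arrays, against 1368 and 1289 in the wild-type arrays, a difference of 0.92 ± 0.078 (SE; limma adjusted p = 2.58e-05). AMT1-1, an ammonium transporter gene, read 1321 and 1335 in the mutant arrays, against 769.6 and 762.0 in the wild-type arrays, a difference of 0.78 (limma adjusted p = 0.000187). GLN2, the plastid glutamine synthetase gene, was at 0.25 (limma adjusted p = 0.0423) and did not pass without either wild-type array (0.316 and 0.137), without the first mutant array (0.143) or with no filter (0.179). GLT2, a glutamate synthase gene, was the one that fell, with 4530 and 4484 in the mutant arrays, against 6946 and 7079 in the wild-type arrays (-0.64 ± 0.063, limma adjusted p = 7.7e-05). The members of this list moved in both directions, and GRF4 itself did not pass. A link between GRF4 and these genes was not tested.

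**Figure D4:**
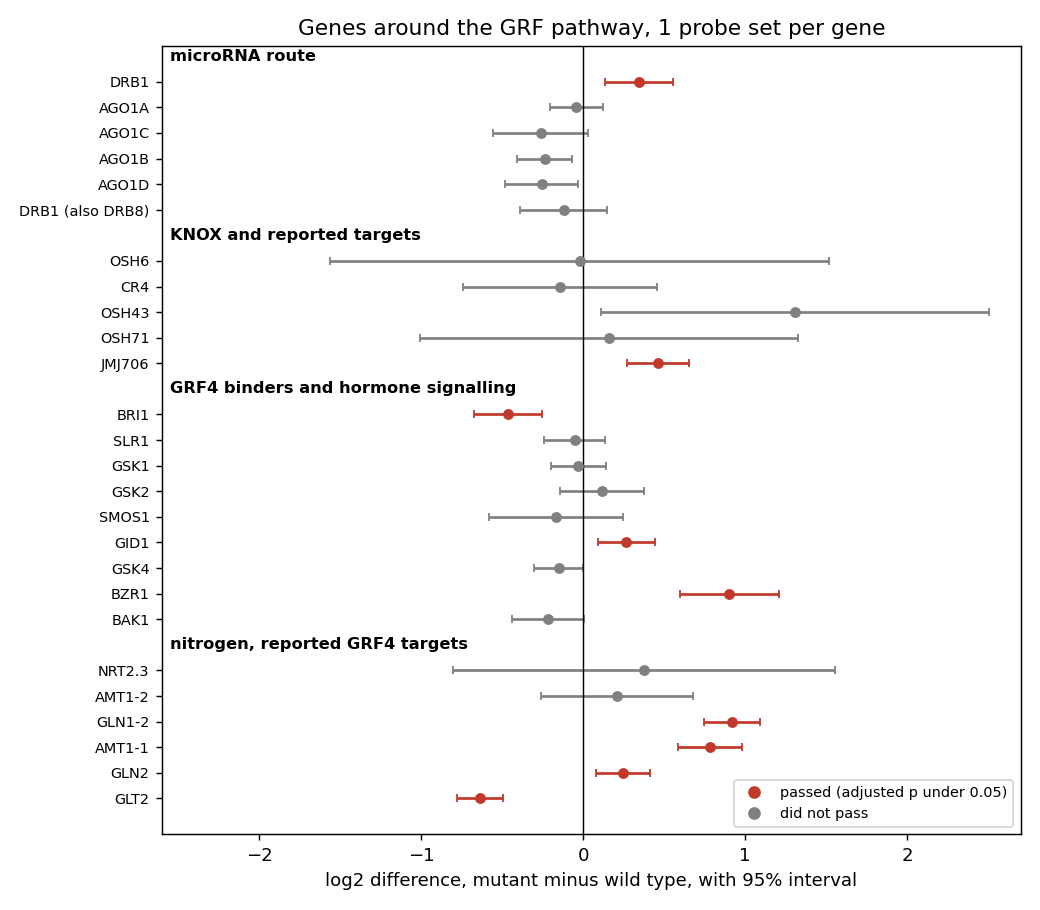
Log2 difference (mutant minus wild type, log2(signal + 16)) with its 95% interval for the 26 tested genes around the GRF pathway, at 1 probe set per gene, grouped by list; red genes passed and grey genes did not. The 9 red genes lie between -0.64 (GLT2) and 0.92 (GLN1-2), and the widest intervals belong to the KNOX genes and NRT2.3.

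The profile of GRF11 across the 4 arrays was set beside those of 2895 probe sets of genes with an informative name. By Euclidean distance between profiles centred on their own mean, the nearest were those of the glutaredoxin genes GRXS11 (0.00802) and GRXS7 (0.0183) and of SPY (0.0128), a regulator of gibberellin response, and 139 lay within 0.1. With 4 arrays of 2 genotypes such likeness is a description only.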

How the data were processed

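Biotin-labelled cRNA of each sample went onto its own Affymetrix rice array, per the labels' protocols. Per the submitters' processing notes the authors used GCOS 1.2, and what they deposited is 1 linear intensity value for each probe set; how GCOS computed it is not given in the sources used here. All 4 arrays had a trimmed mean of 500.1 (2% off each end), so the authors had scaled them before they were deposited.

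Analysis was done in R 4.3.3 on log2(signal + 16). Left out were 123 AFFX controls and then the third with the lowest mean over 4 arrays (19086), so that 38172 probe sets were tested. Array log2 medians lay within 0.06, under a tolerance of 0.1, so nothing further was normalized. The added 16 understates differences of dim probe sets. The genotypes were compared in limma 3.58.1 by lmFit and by eBayes, whose variance prior followed the intensity, and p-values were adjusted by Benjamini-Hochberg over all tested probe sets at a threshold of 0.05. The size needed to pass is each gene's SE times the t value at the largest unadjusted p that passed, 0.00956. On simulated signals of this design, with 50 of 38172 probe sets changed at each of several sizes, the same fit found 56% of the 2-fold changes and 70% of the 4-fold ones, beside 12 false calls. The simulation scaled up the fitted spread and changed far fewer probe sets than the 7300 that passed in the real arrays. Its shares therefore do not give the sensitivity of the real comparison.

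Genes were named through platform annotation and RefSeq's genes for the Japonica assembly ASM3414082v1; all 22436 probe sets with 1 gene matched. A gene was counted by its probe set with the highest mean. The members, lists and tests were chosen with earlier results of these data known. Named by rule were every GRF, the coactivator, each partner list's called genes and brightest gene, and the nearest profiles of the brightest GRF. Outside that rule were AGO1B, AGO1C, AGO1D and the marker genes, of which not all were named. OSH43, OSH71, CR4, SLR1, GSK2, OSH1, PCNA, CDKB2-1, RBCS, GLUA1, GLUA2 and the second or further probe sets were named after their values were seen. Synonym matches to other genes (an invertase named GIF1, a 14-3-3 gene named GID2, GRF4 named GS2, MADS18 named MADS2) were removed from the lists after matching. No sequence of a GRF gene or of miR396 was used here. Correlation of same-numbered arrays' deviations was -0.00469, so the replicate numbers were not taken to pair samples.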

Additional observations from a re-analysis of the deposited data

How the results depend on the processing

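No alternative called a GRF gene: 0 of the tested probe sets passed in all settings run, leaving out each array included. Unadjusted limma p was under 0.05 for GRF11 alone with a common 75th percentile, and for GRF1, GRF4 and GRF7 without the intensity trend. Over the alternatives, the log2 difference of GRF4 lay between 0.43 and 0.84 and that of GRF7 between 0.37 and 1.48, with 64 and 1 added in place of 16 as the extremes for GRF7; GRF7 was below GRF4 with 64 added (0.37 and 0.43) and without the first wild-type array (0.56 and 0.79). GRF3 lay between -0.017, without the second mutant array, and 0.44, without the first. The median GRF difference of 0.14 was -0.011 with no filter, which adds GRF6, GRF10 and GRF12, and 0.068 to 0.17 when each array was left out. Probe sets called numbered 7300, 0 without the intensity trend, 1321 by the 2-fold rule in 4 pairs, and 4636 to 6305 without each array; either wild-type array lowers it over 1.5 times (4752 without replicate 1, 4636 without replicate 2). Partner and downstream genes called numbered 9, 0 without the trend, 0 by the 2-fold rule, 6 with no filter (DRB1, GID1 and GLN2 being lost), and 5 to 8 without each array, lowest without the second wild-type array. The cause was not tested. The 2-fold rule was applied to signal + 16. OSH43 missed it there, though its raw signals were more than 2-fold apart in each of the 4 pairs. With the replicate block limma called 7782 probe sets, 0 GRF genes and 8 partner genes, GLN2 being lost (adjusted p = 0.0695). Having 2 arrays per genotype and signals in the range of foreign reporter probe sets limits what can be seen of GRF1, GRF6, GRF7, GRF10 and GRF12.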

Other observations

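Flower and grain genes were also measured in these seedlings. Of 11 flower genes on the array 7 were tested, 2 were higher in the mutant and 0 lower, where 26.3% of all genes passed. MADS16, a petal and stamen identity gene, read 1136 and 1109 in the mutant arrays, against 852.2 and 814.3 in the wild-type arrays (0.42, limma adjusted p = 0.00875). MADS58, a carpel and stamen gene, read 516.8 and 463.9 in the mutant arrays, against 300.0 and 338.3 in the wild-type arrays (0.60, limma adjusted p = 0.0119). MADS6, MADS7 and MADS13 read at most 4.6 in any array. The summed flower signal was 1846 and 1905 in the mutant arrays, against 1471 and 1487 in the wild-type arrays. Without MADS16 and MADS58 it overlapped, at 193.8 and 332.1 in the mutant arrays, against 318.7 and 334.8 in the wild-type arrays.

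Of 8 grain genes 5 were tested, 1 was higher and 0 lower. WX1, the starch synthase gene of the waxy locus, read 545.4 and 538.6 in the mutant arrays, against 236.4 and 280.3 in the wild-type arrays (1.03 ± 0.14, limma adjusted p = 0.000607). Its dimmer tested probe sets were at 1.77, 0.54 and 0.69 (limma adjusted p = 0.0289, 0.132 and 0.272), so they disagree on the call. Its probe sets under the filter were at -0.24 and -0.027 in the fit with no filter. The storage globulin gene GLB1 read 3368 and 3302 in the mutant arrays, against 2563 and 3022 in the wild-type arrays, and did not pass (0.26, limma adjusted p = 0.0624). Among glutelin genes, GLUA1 read at most 7.9 in any array, while GLUA2 read 962.9 and 962.0 in the mutant arrays, against 1163 and 1075 in the wild-type arrays, and did not pass (-0.21, limma adjusted p = 0.143). A second, dimmer probe set of GLUA2 was lower in the mutant (-0.98, limma adjusted p = 0.0479), so its probe sets disagree on the call. That probe set did not pass with no filter (limma adjusted p = 0.164).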
